A study of Mus musculus with 47 samples.

Results

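Of 47 single induced pluripotent stem cells (iPSCs), the 15 richest in counts of mitotic genes, called high cells, were compared with the 15 poorest, called low cells. Both alleles' counts of Ccnb1, Cdk1, Plk1, Cdc20, Aurka, Bub1, Kif11 and Tpx2, all 8 of which are in the table, were summed in each cell and divided by the total of the cell, and this sum, given per 10000 counts of the cell, is called the mitotic score. The score chose both groups, so that its values and those of these 8 genes are descriptions of the choice and not findings. All 47 cells were iPSCs for which the labels name no other treatment, and which, per the labels, grew in mouse ESC medium with LIF and ascorbic acid. They were reprogrammed with lentiviral OSKM factors from embryonic fibroblasts of a cross between a Mus female with a transgenic X-linked eGFP and a Cast male, and sorted singly into a GpC methylase mix before their mRNA was captured by the G&T-seq procedure. The reads counted are those assigned to the Mus or the Cast allele. All cells came from 1 plate, and the labels name no separate cultures, so that each group is 1 sample of cells: no p-value was computed, and a gene is said to be past 2-fold by its size alone. The 17 cells ranked between the groups are shown beside them, and no cell-cycle phase was assigned to any cell.

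As a cell passes from G2 into mitosis, cyclin B binds and activates the kinase Cdk1, which starts chromosome condensation, breakdown of the nuclear envelope and spindle assembly. The anaphase-promoting complex, an ubiquitin ligase that works with Cdc20 and later with Fzr1, then marks cyclin B and securin for destruction, which lets separase cut cohesin and the sister chromatids part. The mRNAs of these proteins accumulate in G2 and M and are low in G1. Many of their promoters carry a cell cycle genes homology region (CHR), read by the MuvB complexes that repress these genes in quiescence and, with B-Myb and FoxM1, activate them late in the cycle, beside CCAAT boxes bound by NF-Y. Mouse pluripotent stem cells cycle fast, with a short G1.

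Promoter sequences are shown for 5 of the score genes and for 3 other mitosis genes of the comparison, Ube2c, Espl1 and Top2a, because both elements were searched for in the promoters of the genes compared. The 100 bases before the start of the gene are printed 5′ to 3′ on the gene's strand, taken from RefSeq on GRCm38.p6, whose starts can lie inside the gene as GENCODE places it. Capitals mark CCAAT or its reverse complement ATTGG, and the CHR letters TTTGAA, their reverse complement TTCAAA, or TTCGAA. The windows are chr13:100786487-100786586 on the minus strand for Ccnb1, chr10:69352913-69353012 (minus) for Cdk1, chr4:118437344-118437443 (minus) for Cdc20, chr7:122159335-122159434 (plus) for Plk1 and chr19:37376282-37376381 (plus) for Kif11. For the other 3 genes they are chr2:164769829-164769928 (plus) for Ube2c, chr15:102296193-102296292 (plus) for Espl1 and chr11:99024190-99024289 (minus) for Top2a.
Ccnb1: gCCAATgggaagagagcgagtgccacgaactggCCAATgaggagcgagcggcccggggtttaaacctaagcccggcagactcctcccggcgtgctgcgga
Cdk1: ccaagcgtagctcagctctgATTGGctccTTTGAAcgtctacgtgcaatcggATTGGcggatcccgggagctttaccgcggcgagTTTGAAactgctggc
Cdc20: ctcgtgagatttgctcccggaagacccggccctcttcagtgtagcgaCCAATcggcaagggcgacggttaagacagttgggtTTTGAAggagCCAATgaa
Plk1: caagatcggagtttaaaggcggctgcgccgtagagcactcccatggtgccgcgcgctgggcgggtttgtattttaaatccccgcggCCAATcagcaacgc
Kif11: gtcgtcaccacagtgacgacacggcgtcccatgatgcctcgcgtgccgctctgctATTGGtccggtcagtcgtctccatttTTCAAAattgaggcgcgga
Ube2c: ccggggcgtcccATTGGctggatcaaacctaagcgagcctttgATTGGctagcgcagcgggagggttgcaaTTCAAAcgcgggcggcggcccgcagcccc
Espl1: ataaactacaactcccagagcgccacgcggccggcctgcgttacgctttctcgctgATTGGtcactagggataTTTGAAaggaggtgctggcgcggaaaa
Top2a: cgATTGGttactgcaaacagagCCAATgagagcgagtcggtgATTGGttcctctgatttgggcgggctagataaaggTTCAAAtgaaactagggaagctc

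The CHR letters began 15 bases before the start in Cdk1, 18 in Cdc20, 19 in Kif11, 23 in Top2a, 27 in Espl1 and 29 in Ube2c, with a CCAAT box 33, 35, 26, 35, 17 and 28 bases further upstream. In Plk1, Aurka and Bub1 the letters lay behind the start, at bases 31, 33 and 15 of the transcript, and in Ccnb1 the window of 250 bases before to 50 after the start held 2 CCAAT boxes 32 bases apart and no CHR letters. A promoter was matched by symbol for 7 of the 8 score genes, all but Tpx2. Of these 7, 6 held CHR letters in the window and 7 a CCAAT box. Among all 27025 promoters of the RefSeq table, 19.4% held the CHR letters and 37.9% a CCAAT box on either strand, and 7.70% held both. A match is a run of letters, not a measured binding site.

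The score ran from 9.16 to 55.6 per 10000 counts. In the high cells its lowest value was 31.5, its median 34.9 and its highest 55.6, and in the low cells these were 9.16, 16.7 and 19.2. The cells between lay at 19.3 to 28.2. The last cell inside the high group had 31.5 and the first outside it 28.2, while the border of the low group fell between 19.2 and 19.3, so that the upper border lies in a gap and the lower one does not. Cells B03 and A02, named by their wells, had 55.6 and 55.2 and stood apart from the third cell at 43.2. The score rested on 505 to 1075 counts per high cell and on 123 to 309 per low cell.

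**Figure D1:**
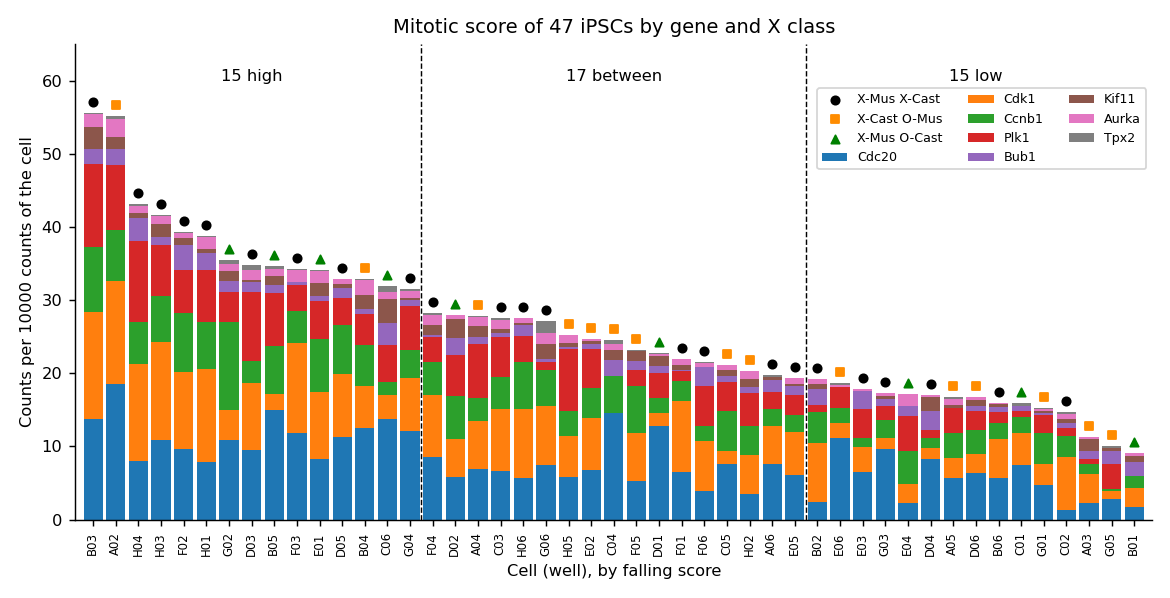
Mitotic score of each of the 47 cells (x axis, wells in falling order) as stacked bars of the 8 score genes in counts per 10000 counts of the cell (y axis); the symbol above a bar gives the X class and dashed lines the borders of the groups. The 2 leftmost cells stand above 55 and the rest fall from 43.2 to 9.16.

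Ccnb1, which encodes cyclin B1 (chr13:100778650-100786570, GRCm38), ranged from 1.78 over a median of 6.41 to 11.9 counts per 10000 in the high cells and from 0.292 over 2.18 to 4.46 in the low cells. The groups overlapped, but 11 of 15 high cells lay above every low cell. Cdk1, its kinase (chr10:69335146-69352938), ranged from 2.12 over 9.22 to 14.7 in the high cells and from 1.17 over 2.72 to 8.03 in the low cells. Plk1, the polo-like kinase of mitotic entry and spindle assembly (chr7:122159439-122169873), was found in all 15 high cells at 3.46 to 11.3, median 6.04, and in 14 low cells at up to 4.88, median 1.89. Their ratios of means were 2.50, 2.69 and 3.18. The marker genes of the label were therefore higher in the high group, as the rule requires.

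Cdc20, the activator of the anaphase-promoting complex, gave 31% of all score counts over the 47 cells. It ranged from 7.90 over 11.3 to 18.6 in the high cells and from 1.31 over 5.65 to 11.1 in the low cells. Aurka, the kinase of the spindle poles, had medians of 1.01 and 0.304. Kif11, the motor that pushes spindle poles apart, was without a count in 1 high and 4 low cells, and Tpx2, which brings Aurora A to the spindle, in 1 high and 9 low cells. Bub1, a kinase of the spindle checkpoint, differed least, with medians of 1.41 and 1.05, a ratio of means of 1.44, and 3 high cells above every low cell.

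The 8 genes did not move as a block from cell to cell. Over the 47 cells and their 28 pairs of genes, Spearman's rho between levels ran from -0.08 (Aurka and Bub1) to 0.57 (Plk1 and Aurka) with a median of 0.25; these pairs share the total of each cell as divisor and counts that are low in several of the genes. All 4 highest values joined Ccnb1, Cdk1, Plk1 and Aurka, and Bub1 stayed at or below 0.20 with every other gene.

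Because the cells are hybrids, the score can be taken from each allele separately, and the allele that did not choose the cells gives a reading that the choice did not use. The Cast score and the Mus score, each per 10000 counts of its own allele, had a Pearson r of 0.74 and a Spearman rho of 0.65 over the 47 cells, which share the library of each cell. The Mus total holds nearly all mitochondrial counts. The scores also weigh the genes differently, as 89.2% of Ccnb1 counts but 6.47% of Plk1 counts in the high cells were Mus. Among the 15 cells ranked highest on Cast counts, the Mus score ran from 12.5 over a median of 28.8 to 50.5, and among the 15 ranked lowest from 7.20 over 16.1 to 32. These groups overlapped, with 7 of 15 cells above the highest of the low ones. Ranked on Mus counts, the Cast score had medians of 39.4 and 22.1, and 6 of 15 cells lay above the highest low one. Of the cells chosen on Cast counts, 12 high and 13 low ones are in the groups described here, and of those chosen on Mus counts 13 and 9. The 2 cells with the highest scores were also highest on both alleles, with 61 and 60.7 on Cast and 50.5 and 49.5 on Mus.

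**Figure D2:**
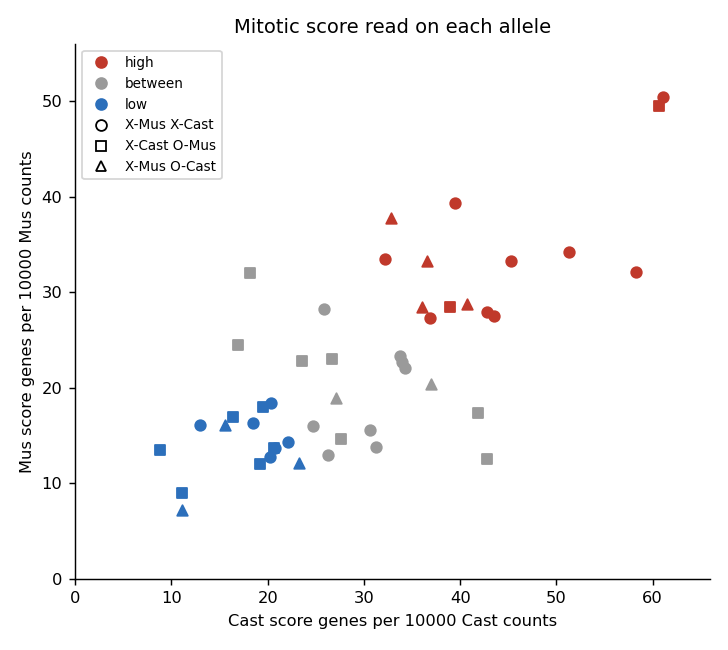
Score genes' Mus counts per 10000 Mus counts (y axis) against their Cast counts per 10000 Cast counts (x axis) in 47 cells, coloured by group and shaped by X class. High cells lie at 32.2 or more on Cast and 27.3 or more on Mus, and low cells at 23.3 or less and 18.4 or less; the groups were chosen on the sum of both.

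The X class of a cell follows the deposited column names, which mark cells as of both alleles (X-Mus X-Cast), Cast (X-Cast O-Mus) or Mus (X-Mus O-Cast). The paper takes the cells of a single allele to have lost an X chromosome, judged by genes that escape X inactivation. In the high group 9 cells had both X chromosomes, 2 had lost that of Mus and 4 that of Cast, and in the low group these numbers were 6, 6 and 3. The share of X-Mus X-Cast cells was thus 60% in the high group, with an exact 95% Clopper-Pearson interval of 32.3 to 83.7%, and 40% (16.3 to 67.7%) in the low group. X-Cast O-Mus cells made up 13.3% (1.66 to 40.5%) and 40% (16.3 to 67.7%). These intervals cover counting error only, and the difference in X class was not tested. The class read from the counts, by the mean Mus share over X-linked genes, matched the column name in all 47 cells. X-linked counts came to a median of 2.56% of autosomal counts in the high cells and 1.60% in the low cells, and within X-Mus X-Cast cells to 2.70 and 2.72%.

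The totals of the groups overlapped. High cells had 130816 to 212232 allelic counts with a median of 167229, and low cells 71682 to 201316 with a median of 167041. Cell E04 of the low group had the lowest total of the plate, and 2 low cells lay below every high cell. Spearman's rho between total and score was 0.04 over 47 cells. Mitochondrial genes took 12.4 to 25.6% of the counts in high cells and 9.47 to 26.7% in low cells, with medians of 20.5 and 22%. Low cells were absent from plate rows F and H, which held 2 and 3 high cells, and every other row held cells of both groups.

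More genes were detected in the high cells at equal depth. After every cell had been thinned to the lowest total, a count remained for 4452 to 5319 genes in high cells, median 4888, and for 2918 to 4777 in low cells, median 4533. Of the high cells, 10 of 15 lay above every low cell. Before thinning the medians were 5192 and 4862 genes. Within the X-Mus X-Cast class the medians were 4910 in 9 high and 4594 in 6 low cells, with 6 of 9 above every low cell. Among the cells of both groups in rows A to E and G they were 4896.5 and 4533, and without E04, whose 2918 genes are the lowest number, the low median was 4559.5. RNA content per cell was not measured, and the part of RNA quality in this difference was not tested.

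**Figure D3:**
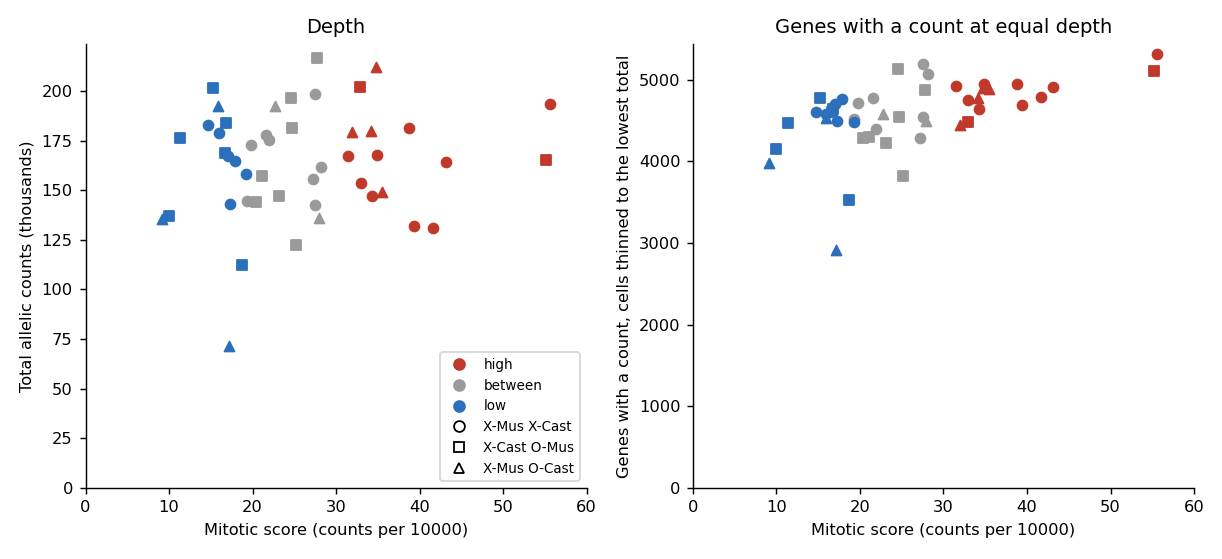
Left, total allelic counts, and right, number of genes with a count after thinning each cell to the lowest total (y axes), against the mitotic score in counts per 10000 (x axes) for 47 cells coloured by group and shaped by X class. Totals of the groups overlap with medians of 167229 and 167041, while the high cells lie between 4452 and 5319 genes and the low cells between 2918 and 4777.

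Over the other genes, the high and low cells were compared by the log2 ratio of mean counts per 10000. A gene was kept when its counts averaged 5 or more across the 30 cells, which left 4150 genes beside the score genes, and their median log2 ratio was -0.01. At least 2-fold higher means were found for 229 genes (5.52%) and at least 2-fold lower ones for 248 (5.98%). In 76 of the 229 and 150 of the 248, a single cell gave more than 20% of the counts. Of the 4150 genes, 2285 had a count in more high than low cells and 596 in fewer. A count in more high cells is therefore not particular to a gene or list named below. With each gene's highest and lowest cell of each group left out of its means, the numbers were 340 and 243.

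The mitosis genes outside the score stood out by count. Of 169 listed genes, 144 were in the table and 107 passed the filter. Of these, 20 (18.7%) were at least 2-fold higher in the high cells, against 5.52% of all genes, and 0 were 2-fold lower, against 5.98%. Their median log2 ratio was 0.47 and 84 of 107 lay above 0. A count in more high than low cells was found for 69 of them and in fewer for 3, beside 2285 and 596 of all 4150 genes. The 0 lower did not hold under every choice. With 10 cells a group 30 of 111 genes were at least 2-fold higher and 4 lower, beside 8.49 and 10.1% of all genes. Within X-Mus X-Cast cells they were 27 of 107 and 4, beside 9.81 and 10.4%. With a score without Cdc20 they were 16 of 109 and 2, beside 5.05 and 7.56%. With counts averaging 1 or more they were 26 of 132 and 6, beside 11.9 and 15.1%. With means of log values 6 of 107 were higher, beside 0.241% of all genes, and 0 lower. As the filter can be passed through the group where a gene is high, and as the list was chosen with results of these data known, these counts describe the cells and support nothing further.

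Summed per cell, the other mitosis genes came to 258 counts per 10000 in the lowest, 309.6 in the median and 403 in the highest high cell, and to 205, 230 and 277 in the low cells. All but 1 of the high cells lay above every low cell. The cells between had 203 to 318, median 263. Over all 47 cells the sum had a Spearman rho of 0.80 with the score, from which it differs in genes but with which it shares the library of the cell. In each X class the high cells lay above all low cells of that class, at 258 or more against 228 or less in X-Mus X-Cast cells, at 333 or more against 250 or less in X-Cast O-Mus cells, and at 296 or more against 277 or less in X-Mus O-Cast cells, of which there were 4 and 3. In the plate rows that held both groups, 9 of 10 high cells lay above every low cell.

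The other mitosis genes were also read gene by gene across alleles. When the cells were ranked on Cast counts of the score genes and the other genes read on Mus counts, 12 of 76 mitosis genes that passed were at least 2-fold higher and 2 at least 2-fold lower, with a median log2 ratio of 0.43, against 6.10 and 7.31% of 2327 genes. With ranking on Mus and reading on Cast, 23 of 83 were higher and 0 lower, with a median of 0.52, against 6.89 and 5.81% of 2788 genes. In the groups described here, 59 of the 107 mitosis genes were above 0 on both alleles, as were 1217 of all 4150.

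**Figure D4:**
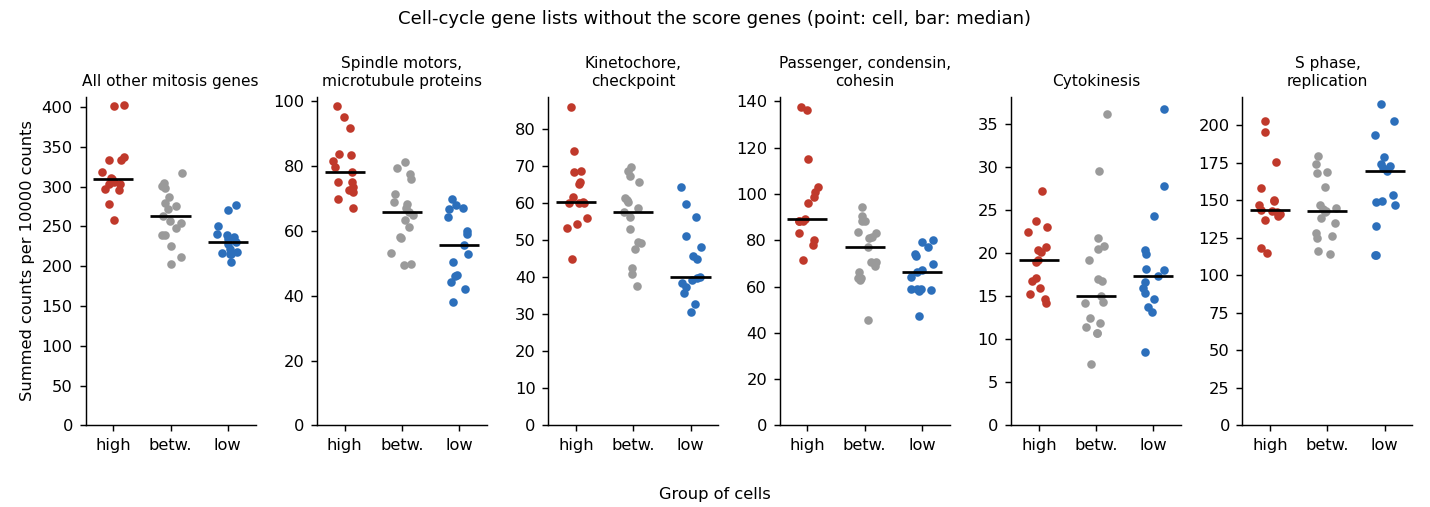
Counts per 10000 counts of the cell summed over each list without the score genes (y axis, from 0, own scale in each panel) for 15 high, 17 between and 15 low cells; each point is a cell and each bar a median. The sum of all other mitosis genes has medians of 309.6 in high and 230 in low cells, whereas S-phase genes have medians of 144 and 170.

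Among spindle motors and microtubule proteins, 7 of 27 genes that passed (25.9%) were at least 2-fold higher, beside 5.52% of all genes, 0 were lower, beside 5.98%, and the median log2 ratio was 0.65. Cenpe, the kinetochore motor that carries chromosomes to the spindle equator (chr3:135212537-135273611), had 0.611 over a median of 1.95 to 4.42 counts per 10000 in the high cells, all 15 of which had a count. In the low cells it had 0 to 2.13, median 0.120, with a count in 9. The log2 ratio was 2.38, and the pooled counts, 526 against 101, gave an exact 95% counting interval of 1.98 to 2.61. Kif18a, a motor that damps chromosome movements at the equator, had medians of 0.536 and 0.0993 and a log2 ratio of 1.91. Hmmr, a spindle assembly factor bound to microtubules, had medians of 3.54 and 0.729 and a ratio of 1.58. Gtse1, a microtubule protein that is also a p53 target, reached 1.83, and Kif14, Ckap2l and Kif20b lay between 1.33 and 1.42. In Kif14, a motor of late mitosis, the Cast counts gave 2.93 and the Mus counts -0.58. Within X-Mus X-Cast cells, with 7 a group, Gtse1 had 0.59 and Kif20b 0.55, and with a score without Cdc20 Hmmr had 0.64, so that these 3 were no longer past 2-fold.

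Kinetochore and checkpoint genes gave 5 of 25 (20%) at least 2-fold higher, beside 5.52% of all genes, and 0 lower, beside 5.98%, with a median of 0.42. Cenpf, a large kinetochore protein that accumulates in G2 (chr1:189640606-189688086), was found in every cell. It ranged from 2.57 over 4.94 to 12.9 in the high cells and from 0.517 over 1.72 to 3.37 in the low cells, with 11 high cells above every low cell and a log2 ratio of 1.60. Bub3, the checkpoint partner of Bub1, also had 11 of 15 high cells above every low cell, at 1.04 to 4.42 against 0 to 1.67, and a ratio of 1.58. Among all 4150 genes, the only others with 10 or more high cells above every low cell were Rpusd3 and Zfp24, and no gene had 10 low cells above every high cell. Ndc80, the outer kinetochore subunit that holds microtubules, had the largest ratio of the mitosis genes, 2.42, on 168 counts in 11 high cells and 29 in 6 low cells, and a single cell gave 20.3% of these. Ttk, the checkpoint kinase Mps1, had 1.22 and Knl1, the scaffold that Bub proteins bind, 1.18. With 10 cells a group the ratios of Ttk and Knl1 were 0.76 and 0.53, and with the score from Mus counts that of Bub3 was 0.96.

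Of the passenger, condensin and cohesin genes, 5 of 22 (22.7%) were at least 2-fold higher and 0 lower, beside 5.52 and 5.98% of all genes, and the median was 0.50. Espl1, the separase that cuts cohesin (chr15:102296266-102324357), had a count in 11 high and 4 low cells, up to 2.01 and 1.29 per 10000, and a log2 ratio of 2.35. Top2a, the topoisomerase that untangles sister chromatids, was counted in all 30 cells, at 0.895 over 11.1 to 19 in the high cells and 0.420 over 5.46 to 10.5 in the low cells, a ratio of 1.20. Aurkb, the kinase of the passenger complex, had medians of 4.53 and 1.15 and a ratio of 1.22. Sgo2a, which protects centromeric cohesin, and Cdca2, which recruits a phosphatase to anaphase chromosomes, had 1.12 and 1.07, but 0.73 and 0.78 within X-Mus X-Cast cells. With the score from Mus counts Top2a had 0.92. The cohesin ring genes Smc1a and Smc3 had -0.07 and -0.12, and Cdca5, the cohesin stabiliser sororin, -0.73.

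The anaphase-promoting complex list gave 2 of 14 genes (14.3%) at least 2-fold higher and 0 lower, against 5.52 and 5.98% of all genes, and a median of 0.40. With so few genes the count is not far from that share. Ube2c, the ubiquitin-conjugating enzyme that serves the complex (chr2:164769898-164778822), had 3001 counts in the high and 805 in the low cells. Its levels were 3.96 over 12.3 to 21.3 in the high cells and 0.623 over 2.90 to 15.5 in the low cells. The groups overlapped, with 3 high cells above every low cell, and the log2 ratio was 1.70. Fzr1, the activator that follows Cdc20, had medians of 2.09 and 0.511 and a ratio of 1.34. Fbxo5, the Emi1 inhibitor that holds the complex off from S phase to prophase, was on the other side, at a median of 0.883 in the high and 1.82 in the low cells and a ratio of -0.74. Subunits of the complex itself ranged from -0.54 for Anapc5 to 0.68 for Anapc15.

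Mitotic cyclins, kinases and their regulators outside the score gave 1 of 10 at least 2-fold higher, 0 lower and a median of 0.41. These counts are near the 5.52 and 5.98% of all genes. The higher gene was Cdc25c, the phosphatase that switches Cdk1 on, with a count in 15 high and 5 low cells and a ratio of 1.40. Within X-Mus X-Cast cells its ratio was 0.04, with the score from Mus counts 0.51 and with equally weighted score genes 0.74, each below 2-fold. Ccnb2, cyclin B2, had medians of 2.59 and 1.70 and a ratio of 0.40. Ccna2, the cyclin of S and G2, differed less than its counting error. It ranged from 2.03 over 3.17 to 6.15 in the high cells and from 1.53 over 3.43 to 8.12 in the low cells, a log2 ratio of -0.00 with an exact 95% counting interval of -0.13 to 0.13 for the pooled counts, and its sign changed in 3 of 15 other ways of processing. The cytokinesis list gave 0 of 9 past 2-fold in either direction, near the 5.52 and 5.98% of all genes. Its median was 0.10, from 0.82 for Racgap1, the GTPase-activating protein of the central spindle, to -0.53 for Cep55, which brings the scission machinery to the midbody.

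Of the 20 mitosis genes past 2-fold, 10 stayed so under all other choices of cells, score, total and mean that were tried apart from means of log values. These were Kif14, Kif18a, Cenpe, Ckap2l, Ndc80, Cenpf, Aurkb, Espl1, Fzr1 and Ube2c. With means of log values Cenpe, Cenpf, Aurkb and Ube2c among these 10 were past 2-fold as well.

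Promoters were matched for 86 of the 107 mitosis genes that passed, and 60.5% of these held the CHR letters, against 16% of 3334 promoters of genes that passed and 19.4% of all promoters. Of the 17 with a promoter among those at least 2-fold higher, 12 held them, and of the 69 among the others 40 (58.0%). A CCAAT box was found in 62.8% of the 86 and in 41.6% of the 3334. Among the genes at least 2-fold higher that are in no mitosis list, 20.5% of 166 promoters held the CHR letters, and among those at least 2-fold lower 13.3% of 196. The letters TTTGGCGC or TTTCGCGC, a form of the E2F site of S-phase genes, were found on either strand in 7 of 46 promoters of S-phase genes that passed and in 0.833% of all promoters.

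**Figure D5:**
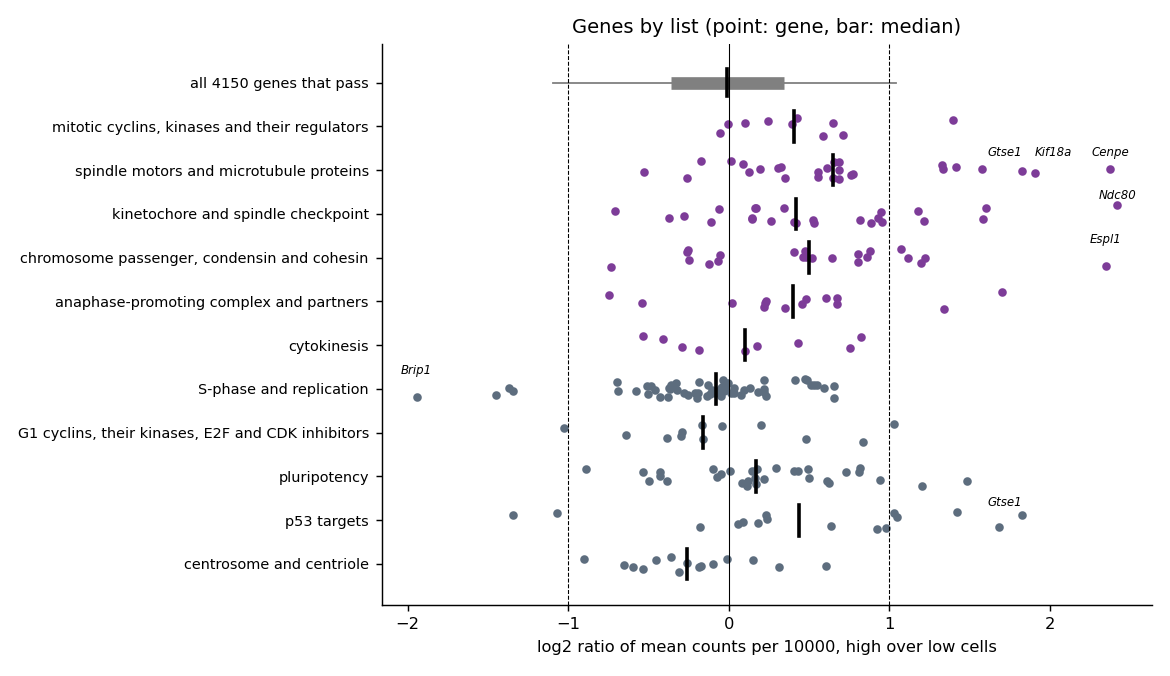
log2 ratio of mean counts per 10000 in the 15 high over the 15 low cells (x axis) for each gene that passed the filter, by list (rows); points are genes, bars medians and dashed lines 2-fold. The top row shows the 5th to 95th percentile of all 4150 genes as a line, from -1.10 to 1.04, and the 25th to 75th as a box; 5 of the 6 mitosis lists (purple) have medians of 0.40 to 0.65 and cytokinesis 0.10.

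S-phase and replication genes had a median close to that of all genes. Of 74 listed, 61 were in the table and 58 passed. At least 2-fold higher were 0, against 5.52% of all genes, and at least 2-fold lower 4 (6.90%), against 5.98%. The median log2 ratio was -0.08, with 38 of 58 below 0. Ranked on Cast and read on Mus counts, 0 of 47 were higher and 5 lower, against 6.10 and 7.31% of all genes so read, with a median of -0.16. Ranked on Mus and read on Cast counts, 6 of 50 were higher and 2 lower, against 6.89 and 5.81% of all genes so read. The median was 0.05, so that the sign of the median differed between these readings. Chaf1b, a subunit of the chromatin assembly factor that works at replication forks, ranged from 0 over a median of 1.14 to 4.28 in the high cells and from 0.364 over 4.48 to 15.0 in the low cells. Of the low cells 8 lay above every high cell, and the ratio was -1.45, but -0.75 within X-Mus X-Cast cells. Pole, the leading-strand polymerase, had medians of 0.594 and 1.24 and a ratio of -1.34. Rfc3, of the clamp loader, had -1.37 and Brip1, a helicase of DNA repair, -1.94. A single cell gave 22.7% of the counts of Pole, 25.2% of those of Rfc3 and 30.3% of those of Brip1. With the score from Mus counts their ratios were -0.58, -0.68 and -0.14, each short of 2-fold. Summed over the list, high cells had 115 to 202 counts per 10000, median 144, and low cells 113 to 214, median 170, so that the ranges overlapped, with 3 of 15 high cells above the low median and 12 of 15 low cells above the high median. Over the 47 cells, which share library and total with the score, the sum had a Spearman rho of -0.30 with it. Pcna, the sliding clamp, had -0.43 and Rrm2, of ribonucleotide reductase, -0.03.

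Of the genes of G1, their kinases and inhibitors, 12 passed, 1 was at least 2-fold higher and 1 lower, E2f3, at -1.03 (-0.25 without the cell with the lowest total), and the median was -0.16. Both counts are near the 5.52 and 5.98% of all genes. Cdkn1a, the p21 inhibitor of cyclin-dependent kinases and a p53 target, had 0.912 over 13.1 to 23.7 in the high cells and 0.253 over 4.32 to 17.4 in the low cells, a ratio of 1.03, which was 0.93 without cell B03. It is also in the p53 target list, of which 5 of 16 genes were at least 2-fold higher and 2 lower, beside 5.52 and 5.98% of all genes, with a median of 0.44. The other higher ones were Gtse1, Eda2r, a TNF receptor family member, at 1.68, Sesn2, a stress-induced regulator of growth signalling, at 1.42 and Aen, a nuclease, at 1.05, where Cast counts gave 1.22 and Mus counts -0.38. Pmaip1, the pro-apoptotic protein Noxa, had -1.34, or -0.47 with 10 cells a group, and Zmat3 -1.07, with 33.8% of the counts of Zmat3 in 1 cell and a ratio of 1.08 within X-Mus X-Cast cells, in the other direction. With a score without Cdc20, Gtse1, Eda2r, Sesn2, Aen and Cdkn1a had 0.84, 0.74, 0.80, 0.36 and 0.61, all below 2-fold. The list holds 2 genes that other lists here hold as well, Gtse1 and Cdkn1a. Of the nuclear envelope genes 1 of 11 was higher, Lmnb2, lamin B2, at 1.13, and 1 lower, Lemd2, at -2.14 with 28.5% of its counts in 1 cell, again near the 5.52 and 5.98% of all genes. With the score from Mus counts Lmnb2 had 0.20, and with a score without Cdc20 Lemd2 had -0.97, both short of 2-fold. The centrosome list had a median of -0.26 with 0 of 15 past 2-fold, beside 5.52 and 5.98% of all genes. The replication-dependent histones, whose mRNAs are not polyadenylated, gave no gene that passed.

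Pluripotency was checked by its markers in both groups. Pou5f1, the Oct4 factor, had a count in every cell, at 1.36 to 3.46 in the high and 1.40 to 3.07 in the low cells, with medians of 2.01 and 1.96. Sox2 had medians of 0.834 and 0.949, Nanog 2.34 and 1.30, and Zfp42, Rex1, 17.8 and 13.8. Of 31 pluripotency genes that passed, 2 (6.45%) were at least 2-fold higher, close to the 5.52% of all genes, and 0 lower, beside 5.98%. Their median was 0.17. Esrrb, Tet1 and Dppa4, further markers, had -0.38, -0.04 and 0.01. The 2 higher genes were Pecam1, an adhesion protein of naive cells, at 1.49, and Fbxo15, an Oct4 target, at 1.21. Without cell B03 the ratio of Fbxo15 was 0.96. In Pecam1 the Mus counts gave 3.13 and the Cast counts 0.11.

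Genes of primed or early lineage cells were sparse, with 4 of 28 past the filter. Lefty1, a secreted inhibitor of Nodal, had the lowest log2 ratio of all genes, -3.67, from 0 over a median of 0.477 to 6.82 in the high cells and 0 over 2.55 to 83.8 in the low cells. A few cells carried this: 5 low cells lay above every high cell, 1 cell gave 21.8% of the counts, and the cells between had a mean of 19.6, close to the 21.3 of the low cells. The ratio was -0.73 with 20 cells a group, -0.81 with the score from Cast counts and -0.13 with a score without Cdc20, so that the call rests on which cells are taken. Lefty2, its neighbour on chromosome 1, had -1.08, Dnmt3b, a DNA methyltransferase, -0.97 and Nodal itself 0.74, and 1 cell gave 22.9% and 25.4% of the counts of Lefty2 and Dnmt3b. With a score without Cdc20, Lefty2 had 0.12.

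Of 23 fibroblast markers, 21 were in the table and 9 were at 0 in all 30 cells, namely Col1a2, Postn, Twist2, Prrx1, Dcn, Lum, S100a4, Snai2 and Zeb2. Their sum was 3.77 to 18.9 per 10000 in the high cells and 5.30 to 38.7 in the low cells, mostly from Fn1, Sparc and Vim. Col1a1 had 0 counts in the high cells (exact 95% Poisson upper limit 3.69) and 13 in 4 low cells, and Thy1 0 and 63 in 5 low cells, while Zeb1 had 103 in the high and 5 in the low cells. Fn1, fibronectin, had medians of 4.24 and 8.26 and a ratio of -1.01, which was -0.45 within X-Mus X-Cast cells. The part of residual fibroblast RNA in the lower genes was not tested.

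Among genes in which no cell gave more than 20% of the counts, the 12 with the highest ratio were Hgsnat, Zfp710, Wdr24, Tmsb15b1, Rasgrp4, Rpusd3, Cenpe, Espl1, Zfp24, Pdcl2, Cdyl2 and Fut9, from 3.43 to 2.04. Of the 153 genes at least 2-fold higher under this condition, 19 were mitosis genes. Hgsnat, a lysosomal acetyltransferase, had 158 counts in 12 high cells and 14 in 3 low cells. Rpusd3, a pseudouridine synthase of mitochondria, had a median of 1.01 in the high and 0.114 in the low cells, a ratio of 2.39, and 10 of 15 high cells above every low cell. Zfp24, a zinc finger factor, had medians of 1.02 and 0.114 and a ratio of 2.27, with 10 high cells above every low one. Tmsb15b1 has near-identical neighbours that may share its reads, so that its 2.63 is uncertain, and its sign reversed when the cells were ranked on Mus counts.

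At the other end were Smagp, Pcnx4, Pxt1, Ano9, Arid2, Tmem38b, Gng2, Pqlc1, Etl4 and Prss36, from -2.82 to -1.68. Smagp, a small membrane glycoprotein, had a median of 0 in the high and 0.533 in the low cells, with 28 counts in 6 and 163 in 12 cells. Arid2, a subunit of a SWI/SNF complex, had 77 counts against 255, with up to 4.90 per 10000 in a single low cell. None of these genes had more than 6 low cells above every high cell. They belong to no list used here. Of the 12 highest genes 6, and of the 12 lowest 5, stayed past 2-fold under all choices tried apart from means of log values; Fut9 had 0.37 and Hgsnat 0.94 with the score from Mus counts, Pqlc1 -0.29 within X-Mus X-Cast cells, and Arid2 -0.42 with a score without Cdc20.

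Genes of general metabolism differed little between the groups. Of 60 ribosomal protein genes that passed, 1 was at least 2-fold higher, Rpl39l, and 1 lower, Rps3a1, beside 5.52 and 5.98% of all genes. Their median was -0.06. Both Rpl39l and Rps3a1 have close paralogs that may share reads. A single cell gave 21.1% and 40.2% of the counts of these 2 genes, and within X-Mus X-Cast cells Rps3a1 had -0.12. The 9 mitochondrially encoded genes had a median of -0.02, with 0 past 2-fold, on nearly pure Mus counts. Glycolysis genes had a median of 0.05 with 0 higher and 1 lower of 15, Aldoc, at -1.08 (-0.03 with a score without Cdc20), and stress and immediate early genes 0.05 with 0 past 2-fold of 13. With so few genes, these counts and that of the mitochondrial genes are not far from the 5.52 and 5.98% of all genes. The list of the 2-cell-like state gave no gene that passed.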

How the data were processed

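The deposited values were raw read counts in 1 table of genes, with a Cast and a Mus column for each of 47 single iPSCs. The submitters' processing notes name STAR 2.5.3a, SAMtools and mm10. The mapping of this plate is not described separately in the sources used here. Columns were matched to cells by well. No column was left over. The reads carry no molecular identifiers, and a read over several SNPs may be counted more than once, so that Poisson and Clopper-Pearson intervals, at 95%, cover counting error only.

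Both alleles were summed, divided by the total of the cell (71682 to 216451 counts) and multiplied by 10000. Cells were ranked by the score, ties by well. Ratios are log2 of the mean of 15 high over 15 low cells, without a pseudocount, where counts averaged 5 or more over the 30 cells. The alternative with means of log values added 1 to each value per 10000. Groups are 1 sample each, so that no test was made. The members and lists were chosen with earlier results of these data known. Genes named are the score genes, the 12 highest and 12 lowest ratios among genes past 2-fold with at most 20% of counts from 1 cell, up to 4 genes per list with the largest ratios, and markers; other list members were chosen after their values were seen. Of the lowest ratios, 2 genes are not reported here. Counts for detected genes were thinned to 71682 per cell. Genes were placed with GENCODE M21 on GRCm38, and promoters came from RefSeq by symbol, the first entry per gene. The X class was checked with limits of 0.15 and 0.85. Scripts ran in Python 3.11.15 with scipy 1.17.1, numpy 2.4.6, matplotlib 3.10.9 and pandas 2.3.3.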

Additional observations from a re-analysis of the deposited data

Results flagged for a closer look

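Within the 9 X-Mus X-Cast cells of the high group, cell B03 lay far from the others in its score, 55.6 per 10000, and in its number of genes with a count after thinning, 5319. Dixon's ratio was applied to 20 sets of cells, and chance flags about 1 in 20 such sets. As the score chose the high cells, its flag describes the choice, and that rate does not hold for it. Without B03 the median log2 ratio of the other mitosis genes was 0.45, and 13 of 14 high cells lay above every low cell in their sum.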

How the results depend on the processing

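With 15 cells a group from 1 plate, the numbers of genes past 2-fold changed with the cells taken, the filter and the mean used. The main counts were 229 higher and 248 lower. With 10 cells a group they were 365 and 435, within X-Mus X-Cast cells (7 a group) 398 and 421, with counts averaging 1 or more 943 and 1193, 20 or more 31 and 15, after thinning 72 and 61, and with means of log values 10 and 1. With 20 cells a group 161 were lower. The median log2 ratio of the other mitosis genes, 0.47, was 0.34 with 20 cells, 0.33 with a score without Cdc20 and 0.29 with means of log values. With both alleles summed it stayed above 0, and the S-phase median below 0, under every alternative; ranked on Mus and read on Cast counts the S-phase median was 0.05. Shares of X-Mus X-Cast cells and the ratio of median totals stayed within their counting interval or spread under the alternatives that change the cells. Of 81 genes traced through up to 15 alternatives, 71 kept 1 direction. Among the 63 past 2-fold, Tmsb15b1 became -0.0476 with the score from Mus counts, Lefty2 0.1226 without Cdc20 in the score and Zmat3 1.08 within X-Mus X-Cast cells. With means of log values 56 of the 63 were no longer past 2-fold, and under the other alternatives 20 always were. Of the values of the 81, 798 stayed within the counting interval of the ratio and 415 did not. The causes were not tested, beyond fewer cells or genes where the alternative sets them. Leaving out B03, or B03 and A02, was chosen after seeing the data and gave 214 higher genes each time and 265 and 308 lower. Genes near 5 counts per cell limit what the depth can show.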
